A study of Mus musculus with 6 samples.

Results

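The genes described here are the subunits of the vacuolar proton pump, the V-ATPase, and the cathepsins, the principal proteases of the lysosome. They were taken from the deposited table by name: every protein-coding gene model whose symbol begins with Atp6v0 or Atp6v1, or consists of Cts and 1 further letter. The rule found 41 of 40303 gene models, of which 23 were V-ATPase genes and 18 were cathepsins. It used no measured value. The libraries came from subcutaneous tumours of CT26, a mouse colon carcinoma line, in BALB/c hosts with the genotype given as WT. There were 6 mice, 1 tumour library from each. Once tumours could be felt, 3 mice received PEGylated glutaminase at 50 IU/kg into the peritoneum, and 3 received the vehicle, PBS with 10% glycerol; both groups were injected every 3 days, 2 times in all. Glutaminase breaks down glutamine, and the comparison asks how the tumour transcriptome differs when the amino acid is depleted throughout the body. The hosts carried no engineered allele by the labels, all tumours derive from the same cell line, and the RNA came from whole tumour tissue with its host cells.

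The V-ATPase is a rotary motor. Its cytosolic V1 sector hydrolyses ATP in a ring of A and B subunits and turns a central shaft, and the shaft drives a ring of proteolipids in the membrane-bound V0 sector, which carries protons past the a subunit into the lysosome. Cathepsins are made as inactive precursors, are sorted to the lysosome and mature in the acid the pump provides. They belong to 3 catalytic classes, cysteine, aspartic and serine proteases, and several are typical of particular cells: cathepsin G of granules in neutrophils and mast cells, cathepsin W of cytotoxic lymphocytes, cathepsin K of osteoclasts and matrix-degrading fibroblasts, and cathepsin S of antigen-presenting cells. Many lysosomal genes share a short E-box element in their promoters, TCACGTGA at its core, which is bound by TFEB and its relatives.

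The promoters are shown because this element is the only sequence feature searched, and some genes of each family hold it. RefSeq windows of the build GRCm38.p6, from 250 bases before to 50 bases after the start of transcription, were at hand for 31 of the 41 genes, 17 V-ATPase genes and 14 cathepsins. Both CACGTG and the longer TCACGTGA, which contains it, read the same on either strand, so 1 search covers both strands. CACGTG was found in the window of 8 of these 31 genes (25.8%), 4 in each family, against 8.09% of the 27025 genes with a window of the same length. TCACGTGA was found in 5 of the 31 (16.1%), 3 V-ATPase genes and 2 cathepsins, against 1.13% of the 27025 genes. The stretches around the TCACGTGA matches of those 5 genes follow, and that of Atp6v0b, which holds 2 copies of CACGTG without the longer form. They are written on the strand of the gene, 5′ to 3′, with the matches in capitals. In Ctsa the longer element occurs 2 times, on both sides of the start site.
Atp6v0d1, chr8:105566041-105566108, minus strand: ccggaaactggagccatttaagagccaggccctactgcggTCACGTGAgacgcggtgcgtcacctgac
Atp6v0e, chr17:26676358-26676425, plus strand: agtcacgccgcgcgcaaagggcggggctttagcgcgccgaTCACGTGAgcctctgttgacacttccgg
Atp6v1a, chr16:44139364-44139431, minus strand: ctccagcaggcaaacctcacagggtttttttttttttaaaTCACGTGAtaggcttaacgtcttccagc
Ctsa, chr2:164833720-164833802, plus strand: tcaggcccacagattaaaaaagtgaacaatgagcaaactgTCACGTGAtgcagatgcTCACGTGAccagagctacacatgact
Ctsd, chr7:142387899-142387966, minus strand: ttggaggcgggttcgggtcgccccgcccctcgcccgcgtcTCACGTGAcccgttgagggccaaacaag
Atp6v0b, chr4:117887320-117887405, minus strand: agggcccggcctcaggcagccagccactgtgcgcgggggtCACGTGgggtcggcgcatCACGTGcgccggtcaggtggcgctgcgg

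The 6 libraries held between 16455052 and 18051480 reads assigned to gene models, with every treated library (16455052 to 16791267) below every vehicle library (17380129 to 18051480). Values below are normalized counts, read counts divided by a size factor per library; where genes are compared in level, the value is divided by transcript length (per kb). Vehicle 1 stood apart through keratinocyte genes: 12 such markers summed to 8429 normalized counts there and to between 95.04 and 294 in the other 5 libraries. PEG-glutaminase 2 stood apart through the lowest sum of 14 T and NK cell markers, 723 against 2107 to 5468 elsewhere. The labelled tissue was checked against 11 colon epithelial genes: Cdx1 and Tff3 were at 0 in every library, Epcam averaged 24.5 ± 28.9 (SD, n = 3) normalized counts in vehicle tumours, and the summed level, 4762 to 5470 in vehicle tumours and 2633 to 3971 in treated ones, was largely Krt20. In tissue of this kind, fewer cells of a type and less RNA per cell cannot be told apart.

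Of the 41 genes, 31 had a mean of at least 10 normalized counts and were tested, 17 V-ATPase genes (8 of the V0 sector and 9 of V1) and 14 cathepsins. Most of the 10 untested genes are forms known from particular tissues. Atp6v1e2 and the cathepsins Ctsj, Ctsm, Ctsq and Ctsr, the last 4 known from rodent placenta, had 0 reads in all 6 libraries. A count of 0 in a library can still arise where up to 3 reads are expected. Atp6v0a4 and Atp6v1b1, the kidney and epididymis forms of the a and B subunits, Atp6v1c2, Atp6v1g3 and Atp6v1fnb had a few reads. Atp6v1fnb is named for its position beside Atp6v1f and is not itself a subunit.

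Cathepsin transcripts were the more abundant and the more unequal family. Cathepsins took 0.523 ± 0.021% of reads in vehicle tumours and 0.540 ± 0.034% in treated tumours (SD, n = 3 each), and V-ATPase genes took 0.126 ± 0.006% and 0.123 ± 0.005%; in both families the groups overlapped. For each V-ATPase read there were between 3.90 and 4.49 cathepsin reads in every library. Ctsl and Ctsb alone made up between 57.0% and 65.4% of cathepsin reads, and with Ctsd and Ctss between 79.0% and 84.6%. Per length, Ctsl was the highest at 15588 normalized counts per kb (mean of 6 libraries), followed by Ctsb (5323), Ctss (5276), Ctsd (5198) and Ctsz (3728), and the lowest tested was Ctsf at 32.0. The ratio of highest to lowest was 487. Among V-ATPase genes Atp6v1f was the highest at 2509 per kb and Atp6v0d2 the lowest at 5.78, a ratio of 434, but 15 of the 17 lay above 200, and only the tissue-restricted Atp6v1g2 (31.8) and Atp6v0d2 lay below it. The median gene stood at 592 per kb in the V-ATPase family and at 687 in the cathepsins.

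**Figure D1:**
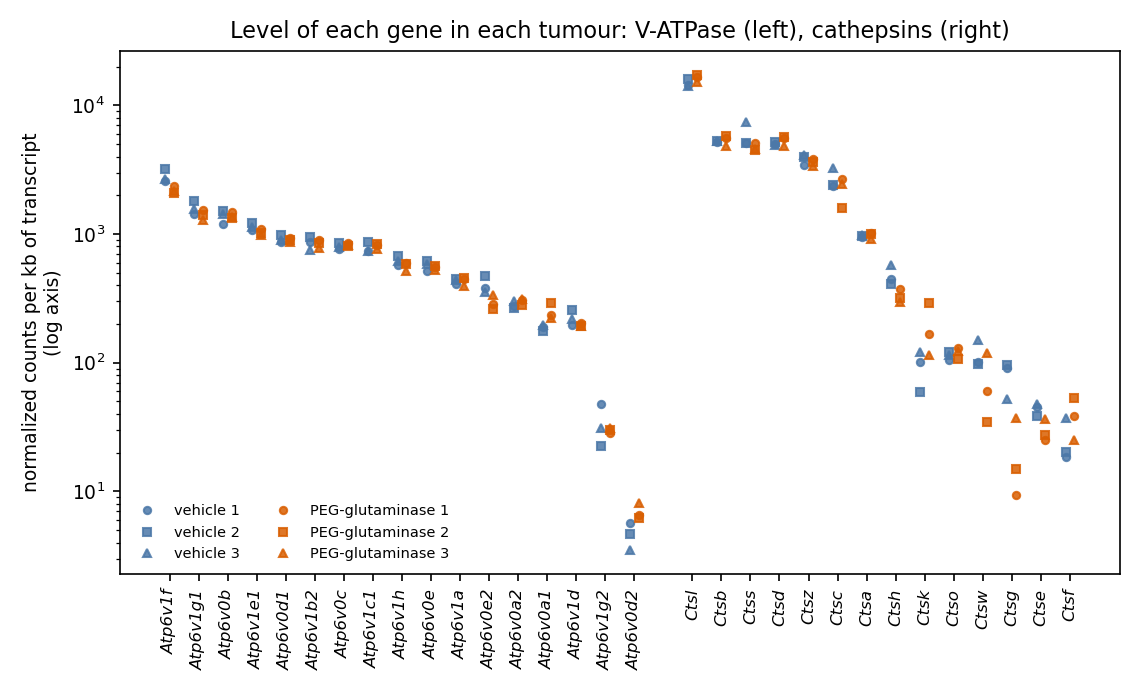
Normalized counts per kb of transcript (log axis) for the 17 tested V-ATPase genes and 14 tested cathepsins, each point 1 tumour, blue for vehicle and orange for PEG-glutaminase, with genes in order of mean level. All but 2 V-ATPase genes have a mean above 200 per kb, while cathepsins spread from 15588 for Ctsl to 32.0 for Ctsf. Among cathepsins the scatter between tumours of a group is widest in Ctsg, Ctsw, Ctsk and Ctsf, all low, while Ctse and Ctso, also low, scatter less.

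No gene of either family passed the test across all genes. By limma on log2(value + 1) with Benjamini-Hochberg adjustment, 0 of 17 V-ATPase genes and 0 of 14 cathepsins had an adjusted p under 0.05, where 5 of 13557 tested genes (0.0369%) passed; the lowest adjusted p was 0.136 in the V-ATPase family (Atp6v0a1) and 0.122 among cathepsins (Ctsg). At an unadjusted limma p under 0.05, 3 V-ATPase genes and 3 cathepsins were found, 1 higher and 5 lower, against 18.4% of all tested genes, 8.92% higher and 9.51% lower. edgeR's quasi-likelihood test on the recovered reads called 0 genes of either family and 0% of all tested genes, with 2554 at an unadjusted p under 0.05. DESeq2 on the same reads called 0 V-ATPase genes and 3 cathepsins, Ctsk higher and Ctsg and Ctsh lower, where it called 3.9% of the 12490 genes with an adjusted p, 1.73% higher and 2.17% lower. The 3 vehicle and 3 treated values did not overlap for 4 V-ATPase genes (23.5%) and 3 cathepsins (21.4%), close to the 25.8% of all tested genes, of which 13.1% were higher and 12.7% lower.

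The families had nearly the same median difference, and cathepsins scattered more widely around it. The median log2 difference, treated minus vehicle, was -0.02 for the V-ATPase genes, of which 7 were higher and 10 lower, and -0.03 for the cathepsins, 7 higher and 7 lower; the median of all tested genes was -0.00. The family medians differed by 0.01. Family means were less alike. For V-ATPase genes the mean deviation from the gene means was -0.01, 0.08 and -0.03 log2 units in vehicle tumours 1 to 3. In treated tumours 1 to 3 it was 0.02, -0.02 and -0.04. For cathepsins it was 0.03, 0.02 and 0.24 in vehicle and -0.11, -0.12 and -0.06 in treated tumours. The gap between the 2 family means had an SD of 0.13 between libraries of a group, and was not tested. The log2 difference of single genes lay within 0.2 of 0 for 13 of 17 V-ATPase genes, 6 of 14 cathepsins and 8021 of all 13557 tested genes. The largest differences were 0.57 (Atp6v0d2) and -0.45 (Atp6v0e2) in the V-ATPase family and 0.97 (Ctsk) and -2.08 (Ctsg) among cathepsins. Spread between tumours went along with this: the median SD of log2 values within groups was 0.14 for V-ATPase genes, 0.22 for cathepsins and 0.15 for all tested genes.

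**Figure D2:**
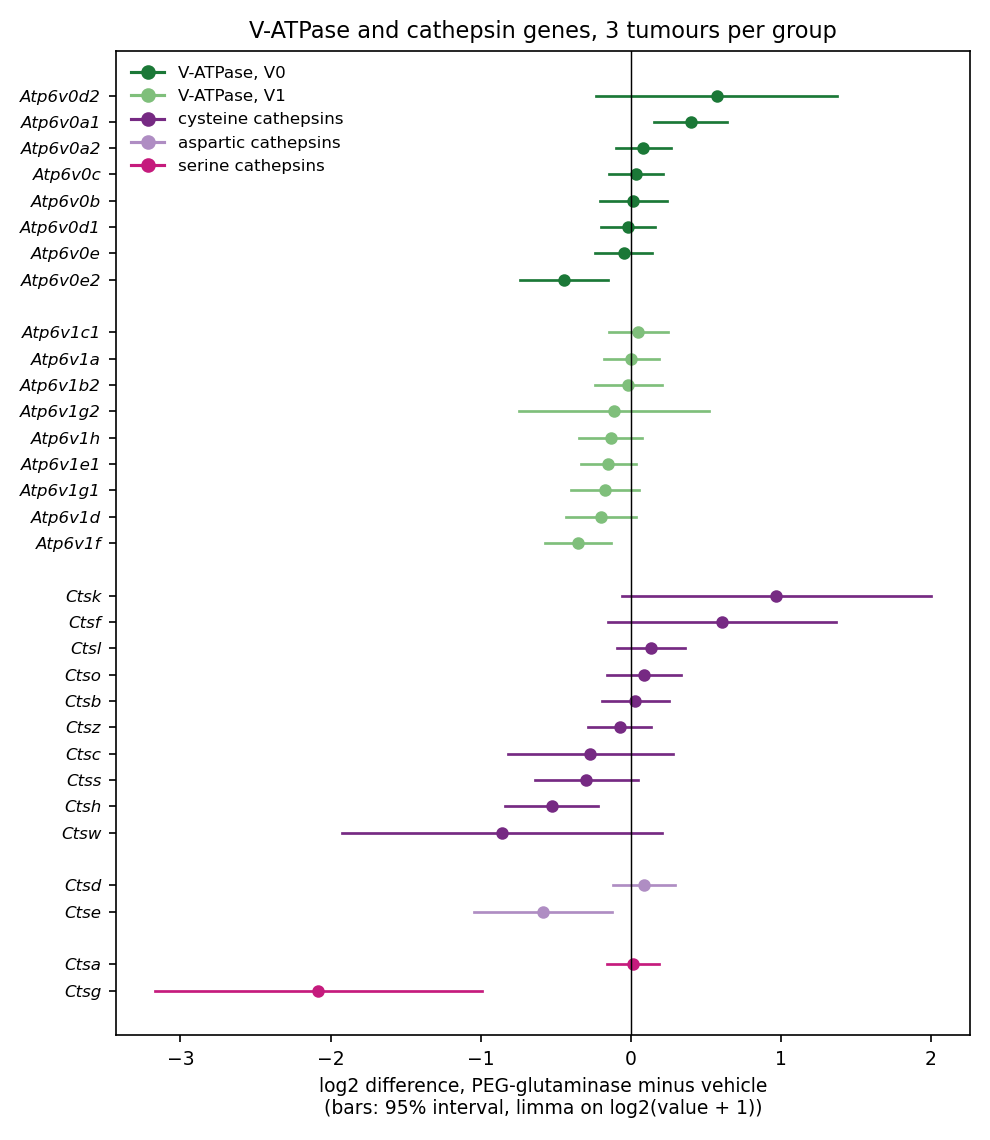
Log2 difference between PEG-glutaminase and vehicle tumours for each tested gene, points with 95% intervals from limma, grouped by V-ATPase sector and cathepsin class. Most V-ATPase points lie within 0.2 of 0, whereas cathepsins run from -2.08 (Ctsg) to 0.97 (Ctsk), the wide intervals belonging mainly to genes of low or variable level.

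In the V0 sector, the membrane part of the pump, 5 of 8 tested genes were higher and 3 lower, with a median log2 difference of 0.03. Atp6v0c and Atp6v0b encode the c and c″ proteolipids of the rotating ring, and Atp6v0d1 the d subunit that couples the ring to the shaft. Their log2 differences were 0.03, 0.02 and -0.02, and the intervals ran from -0.15 to 0.21, from -0.20 to 0.24 and from -0.20 to 0.16. The V0 genes with separated groups were Atp6v0a1, Atp6v0d2 and Atp6v0e2, 37.5% of those tested, against 25.8% of all tested genes. All are isoform genes, as are Atp6v0a2, Atp6v0d1 and Atp6v0e, whose groups overlapped.

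Atp6v0a1 encodes a1, an a-subunit isoform abundant in neurons and present in many cells, where a subunits provide the proton path and help place the pump in a given membrane. It measured 757, 705 and 785 normalized counts in vehicle tumours 1 to 3 and 940, 1156 and 887 in treated tumours 1 to 3. Every treated tumour was above every vehicle tumour, and treated tumour 2 was the highest. The means were 749 ± 40.4 and 995 ± 143 (SD, n = 3), a log2 difference of 0.40 ± 0.11 (SE) with a limma adjusted p of 0.136; DESeq2 gave an adjusted p of 0.0507. Without vehicle 1 and PEG-glutaminase 2 the log2 difference was 0.30.

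Atp6v0a2, the a2 form found on Golgi and endosomes, measured 1483, 1427 and 1612 in vehicle and 1628, 1504 and 1661 in treated tumours, a log2 difference of 0.08 ± 0.08. Tcirg1, which encodes a3, the lysosomal and osteoclast form, falls outside the name rule; it measured 2342, 2126 and 2461 in vehicle and 2092, 2076 and 2089 in treated tumours, and its log2 difference was -0.14 ± 0.08 with a limma adjusted p of 0.346. Atp6v0a4 had 12.6, 3.92 and 1.96 against 3.11, 0.990 and 3.09, too few for a test. Set against each other per length, Tcirg1 was the main a-subunit transcript in every tumour. Atp6v0a1 made up 15.2 ± 0.209% of the 4 transcripts in vehicle tumours and 20.1 ± 2.59% in treated tumours, with the lowest treated tumour at 18.1% and the highest vehicle tumour at 15.4%. Tcirg1 made up 61.7 ± 0.505% and 55.6 ± 0.978% (all n = 3), again without overlap, and the Atp6v0a2 shares overlapped at 22.9 ± 0.511% and 24.2 ± 1.58%. These shares were not tested, and since they sum to 100% a larger share for one isoform takes from the others.

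**Figure D3:**
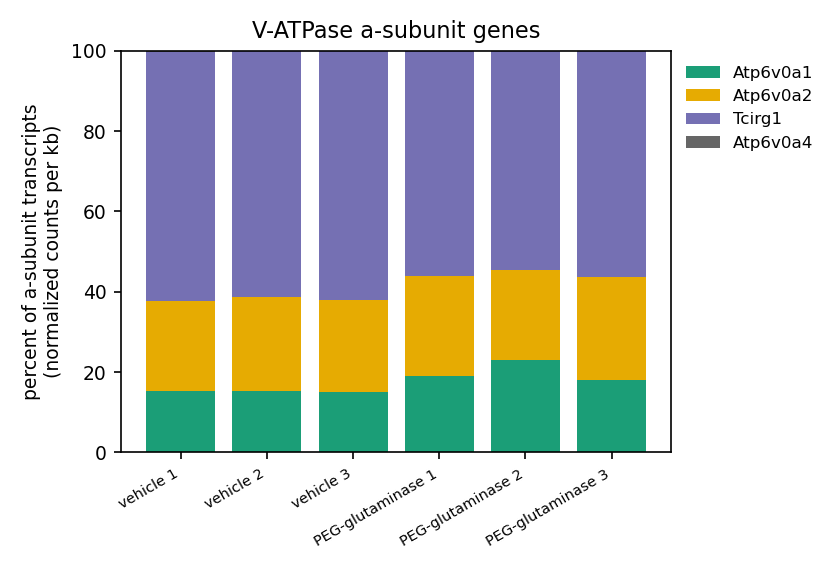
Share of each a-subunit gene in the summed a-subunit transcripts (percent, normalized counts per kb), 1 bar per tumour. Tcirg1 is the largest part of every bar; the Atp6v0a1 part is between 14.98% and 15.4% in the 3 vehicle tumours and between 18.1% and 23.0% in the 3 treated tumours, while Atp6v0a4 is too small to see.

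Atp6v0d2, the d-subunit form of osteoclasts and kidney, was near the limit of what was tested, at 14.5, 11.8 and 8.83 in vehicle tumours and 16.6, 15.8 and 20.6 in treated tumours. The groups did not overlap, but these are small counts: the means were 11.7 ± 2.83 and 17.7 ± 2.55 (SD, n = 3), and the log2 difference was 0.57 ± 0.36 with a limma adjusted p of 0.406. It made up less than 1% of d-subunit transcripts in each tumour (0.504 ± 0.140% in vehicle and 0.768 ± 0.135% in treated tumours). The sum of 10 osteoclast markers was 1724 to 1975 in vehicle and 1940 to 2211 in treated tumours; its part in the result was not tested. Of the 7 osteoclast markers tested 4 were higher and 3 lower. Nfatc1 (829 in vehicle and 886 in treated tumours), Itgb3 (348 and 321) and Acp5 (152 and 173) overlapped, and Mmp9 was higher without overlap (198 and 358, log2 difference 0.85, adjusted p 0.0954 by limma and 0.000168 by DESeq2). Oscar, Dcstamp and Calcr averaged below 3 normalized counts in both groups; Dcstamp did not overlap, at 0.649 and 2.71.

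The e subunit, a small membrane protein of V0, has 2 genes. Atp6v0e2 measured 676, 843 and 630 in vehicle tumours and 514, 463 and 597 in treated tumours. All treated tumours were below all vehicle tumours, with the nearest pair, vehicle 3 and treated 3, close together. The means were 716 ± 112 and 525 ± 67.3 (SD, n = 3) and the log2 difference -0.45 ± 0.13, with adjusted p-values of 0.153 by limma and 0.0644 by DESeq2. Without vehicle 2, the highest library, the log2 difference of Atp6v0e2 was -0.32. Its paralogue Atp6v0e measured 1451, 1726 and 1642 against 1570, 1600 and 1481, with a log2 difference of -0.05. Per length, Atp6v0e2 made up 41.1 ± 3.08% of the pair in vehicle and 34.7 ± 3.79% in treated tumours, and these shares overlapped. The annotation gives Atp6v0e transcripts of unequal length at equal support, and the longer one was used, so the split between the 2 genes rests on that choice.

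In the cytosolic V1 sector, 7 of 9 tested genes were lower and 2 higher, with a median log2 difference of -0.13. The catalytic core lay close to 0: Atp6v1a, the ATP-hydrolysing A subunit, had a log2 difference of 0.00 and an interval from -0.18 to 0.19. Atp6v1b2, the B subunit of most tissues, measured 2428, 2683 and 2136 in vehicle and 2545, 2414 and 2192 in treated tumours. These ranges overlap almost fully, and the log2 difference was -0.02. The stalk and shaft subunits Atp6v1c1, Atp6v1h, Atp6v1e1, Atp6v1g1 and Atp6v1d had log2 differences of 0.05, -0.13, -0.15, -0.17 and -0.20, and 0.331 was the lowest limma adjusted p among them. Vehicle 2 was the highest library for 7 of the 9 V1 genes and for 12 of all 17 V-ATPase genes, so that single tumour weighs on the vehicle mean of this family. Without vehicle 2 the log2 difference was 0.13 for Atp6v1c1, -0.08 for Atp6v1h, -0.10 for Atp6v1e1, -0.08 for Atp6v1g1, -0.10 for Atp6v1d and 0.06 for Atp6v1b2.

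Atp6v1f, the F subunit of the central shaft, was the V1 gene with separated groups. It measured 1825, 2251 and 1865 in vehicle tumours and 1672, 1459 and 1513 in treated tumours, so that every treated value was below every vehicle value. The means were 1980 ± 236 and 1548 ± 110 (SD, n = 3) and the log2 difference -0.35 ± 0.10, with adjusted p-values of 0.140 by limma and 0.0533 by DESeq2. Without vehicle 1 and PEG-glutaminase 2 the log2 difference was -0.37, and without vehicle 2, the highest library, it was -0.26. The authors' deposited table lists Atp6v1f with a log2 fold change of -0.34 and an adjusted p of 0.0128; that comparison appears to rest on more libraries than the 6 used here. Of the genes that DESeq2 called on the 6 libraries, the authors' deposited table lists Ctsh at -0.29 with an adjusted p of 0.387, Ctsk at 0.82 with 0.314 and Ctsg at -1.21 with no adjusted p. Atp6v1f has the shortest transcript of the tested V-ATPase genes, at 703 nucleotides, and its log2 difference was -0.19 after a length trend was removed in each library.

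Transcript length went with the differences in these libraries. Over all tested genes of up to 1000 nucleotides the median log2 difference was -0.16, and over genes longer than 6000 nucleotides it was 0.14. Among V-ATPase genes, 9 of the 13 with transcripts of up to 3000 nucleotides were lower and 1 of the 4 longer ones was lower; Spearman's rho between length and log2 difference was 0.42 over the 17 V-ATPase genes, 0.43 over the 14 cathepsins and 0.28 over all 13472 tested genes with a length, given as a description across genes that share the same 6 libraries. With the trend removed, the median was 0.08 for V0, -0.07 for V1, -0.03 for all V-ATPase genes and -0.01 for cathepsins. Atp6v0a1 then stood at 0.37 and Atp6v0e2 at -0.40.

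**Figure D4:**
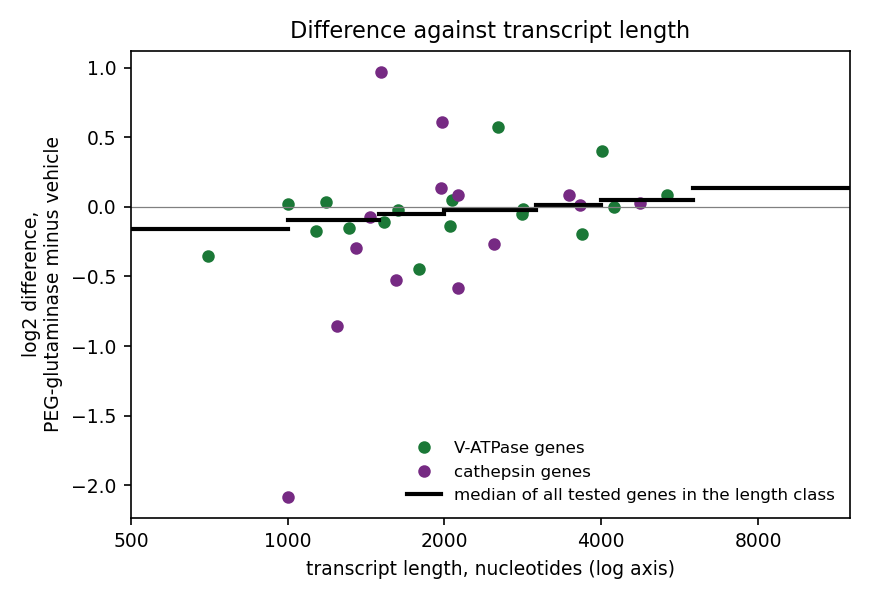
Log2 difference (PEG-glutaminase minus vehicle) against transcript length in nucleotides (log axis) for V-ATPase genes in green and cathepsins in purple; black bars mark the median of all tested genes in each length class. The bars climb from -0.16 in the shortest class to 0.14 in the longest, and Atp6v1f sits at the short end at -0.35 while Ctsg, at -2.08, lies far below the bar of its class.

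The remaining V1 isoforms were minor. Atp6v1g2, a G subunit known from neurons, measured 73.4, 34.3 and 47.1 in vehicle and 43.5, 45.5 and 47.3 in treated tumours, between 1.23% and 3.25% of G-subunit transcripts per length. Atp6v1e1 supplied 100% of E-subunit reads and Atp6v1b2 between 99.9% and 100% of B-subunit transcripts in every library. Atp6v1c2, an epithelial C subunit, had 20.3 normalized counts in vehicle 1 and 0, 0, 1.04, 0 and 1.03 in the other 5 libraries. Vehicle 1 is the library with the keratinocyte sum of 8429, and it also held the highest Atp6v0a4 value; the part of keratinocyte RNA in these values was not tested.

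The 3 cathepsins with the highest normalized counts, Ctsl, Ctsb and Ctsd, differed little. Ctss and Ctsc, the next by that measure, are described further below. Ctsl, the main endopeptidase of the family, measured 28111, 31649 and 28035 in vehicle and 32508, 34192 and 29844 in treated tumours. The groups overlap, with vehicle 2 above treated 3, and the log2 difference was 0.14 ± 0.10 (limma adjusted p 0.483). Ctsb, an endo- and exopeptidase, measured 24558, 25148 and 25143 against 26515, 27277 and 22837, a log2 difference of 0.03 with an interval from -0.19 to 0.25. The aspartic protease Ctsd measured 10719, 11040 and 10377 against 11901, 12043 and 10260, and its log2 difference was 0.09 ± 0.09. In all 3 genes treated tumours 1 and 2 were above every vehicle tumour and treated tumour 3 was the lowest of the treated group. The carboxypeptidases Ctsz and Ctsa and the cysteine protease Ctso had log2 differences of -0.07, 0.02 and 0.09.

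Ctsg gave the largest difference of either family. It encodes cathepsin G, a serine protease stored in granules. It measured 90.8, 96.1 and 52.0 normalized counts in vehicle tumours 1 to 3 and 9.32, 14.8 and 37.0 in treated tumours 1 to 3. Every treated value was below every vehicle value, and treated tumour 3 came nearest. The means were 79.6 ± 24.1 and 20.4 ± 14.7 (SD, n = 3), a treated to vehicle ratio of 0.256. The log2 difference was -2.08 ± 0.48 with an interval from -3.17 to -0.99; the adjusted p was 0.122 by limma, 0.148 by edgeR and 0.00283 by DESeq2. Without PEG-glutaminase 3 it was -2.61 with a limma adjusted p of 0.0401, and without PEG-glutaminase 1 it was -1.67 with 0.240; without vehicle 1 and PEG-glutaminase 2 it was -1.86. Mast cell markers were lower between groups: all 10 had negative differences, the smallest being Kit at -0.01, and their sum was 3575, 2749 and 4105 in vehicle and 1505, 2169 and 2544 in treated tumours, without overlap. Within the vehicle group the order was the opposite, since vehicle 3 had the highest mast cell sum and the lowest Ctsg; within the treated group both were lowest in tumour 1 and highest in tumour 3. The sum of 12 neutrophil markers overlapped, at 280 to 354 in vehicle and 204 to 381 in treated tumours. Of the 4 neutrophil markers tested 2 were higher and 2 lower, and all overlapped. Csf3r averaged 152 in vehicle and 117 in treated tumours, S100a9 82.7 and 111, and S100a8 48.2 and 60.0. These levels were of the order of Ctsg itself or above it. Cxcr2 was low, with a log2 difference of -0.03. Ltf, with too few reads for a test, was lower without overlap like Ctsg, averaging 8.14 in vehicle and 3.41 in treated tumours. Ngp and Elane were at 0 in every library, and Mpo and Prtn3 averaged below 3. The part of mast cells and of neutrophils in the Ctsg values was not tested.

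Ctsh, an aminopeptidase that also trims surfactant protein precursors, measured 718, 660 and 929 in vehicle tumours and 601, 511 and 479 in treated tumours. The groups did not overlap, and vehicle 3 was the highest. The means were 769 ± 142 and 530 ± 63.0 (SD, n = 3), with a log2 difference of -0.53 ± 0.14 and adjusted p-values of 0.135 by limma and 0.0275 by DESeq2. Ctse, an aspartic protease of gastric epithelium and some immune cells, measured 96.6, 82.4 and 102 against 52.8, 58.4 and 77.2. Its treated values were again all lower, with means of 93.7 ± 10.1 and 62.8 ± 12.7 (SD, n = 3). Its log2 difference was -0.58 ± 0.21, with adjusted p-values of 0.197 by limma and 0.240 by DESeq2.

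Ctss, which cuts the invariant chain Cd74 during MHC class II loading, measured 6847, 6867 and 10084 in vehicle and 6895, 6052 and 6151 in treated tumours. The groups overlap, and vehicle 3 lies far above the other 5 tumours. The log2 difference was -0.30 ± 0.15 (limma adjusted p 0.322), and -0.11 without vehicle 3. Ctsc, the dipeptidyl peptidase that activates granule serine proteases such as cathepsin G and granzymes, had the same high tumour. It measured 5860, 6008 and 8153 against 6714, 3994 and 6120, and the low value was treated tumour 2. Its log2 difference was -0.27 ± 0.23 (limma adjusted p 0.554), and -0.04 without PEG-glutaminase 2. Across the 14 cathepsins vehicle 3 had the highest mean deviation, 0.24 log2 units above the gene means, against -0.12 to 0.03 in the other libraries. Vehicle 3 also had the highest sums of dendritic cell and MHC class II markers (49692, against 29420 and 31601 in the other vehicle tumours and 8239 to 18929 in treated ones) and of macrophage markers (66925, against 48001 to 60691 elsewhere). Of the 14 dendritic markers 12 were lower and 2 higher in treated tumours, and of the 18 macrophage markers 10 were lower and 8 higher. Mrc1 (2283 in vehicle and 6239 in treated tumours) and Cd163 (148 and 580) were higher without overlap, and the other macrophage markers overlapped. Their adjusted p-values were 0.124 and 0.236 by limma, and 0.00259 and 0.0677 by DESeq2. The part of these cells in the Ctsh, Ctss and Ctsc values was not tested.

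**Figure D5:**
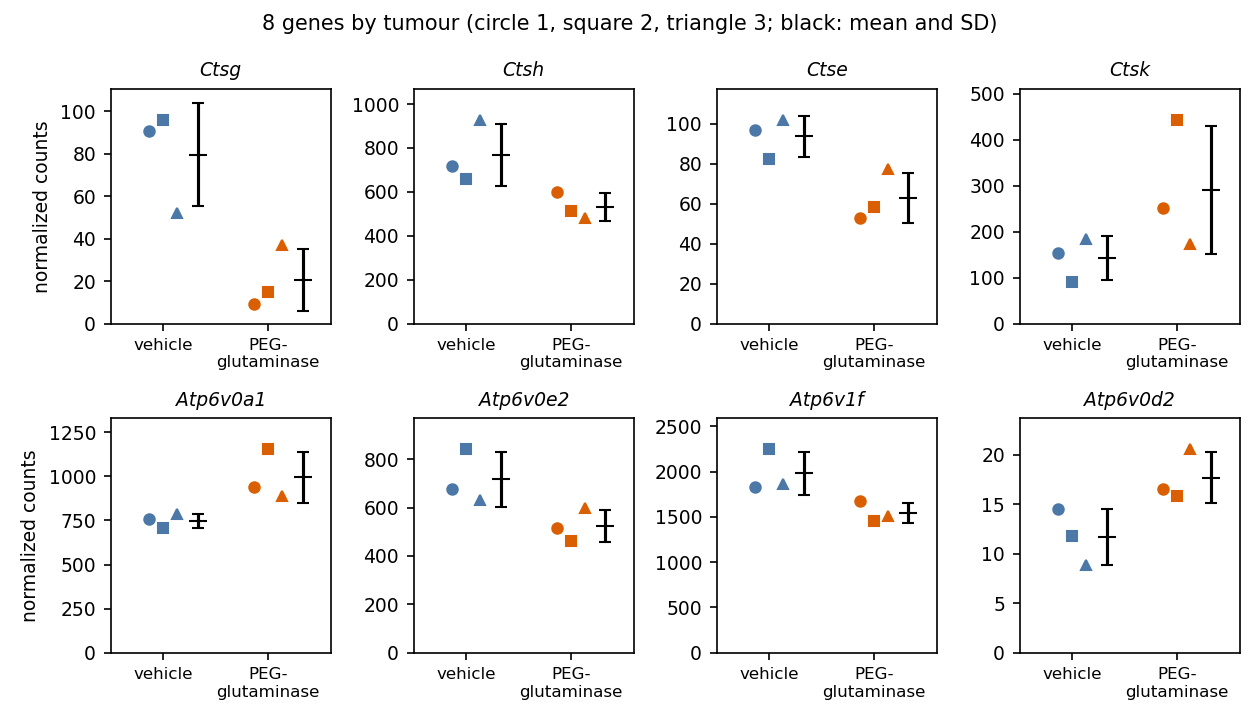
Normalized counts in each tumour for 4 cathepsins and 4 V-ATPase genes (circle, square and triangle for tumours 1, 2 and 3; blue vehicle, orange PEG-glutaminase; black mark and bar, mean and SD of 3). The groups are separate in Ctsg, Ctsh, Ctse, Atp6v0a1, Atp6v0e2, Atp6v1f and Atp6v0d2; in Ctsk treated tumour 3 (173) lies below vehicle tumour 3 (183).

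Ctsw, the cathepsin of cytotoxic T and NK cells, measured 125, 122 and 187 in vehicle tumours and 74.6, 42.6 and 147 in treated tumours. Treated tumour 3 lay within the vehicle range and treated tumour 2 was the lowest of all. The log2 difference was -0.86 ± 0.45 (limma adjusted p 0.348) and ranged from -1.31 without PEG-glutaminase 3 to -0.43 without PEG-glutaminase 2. The sum of 14 T and NK cell markers had the same order in the treated group, 2107, 723 and 3878 in tumours 1 to 3. Within the vehicle group the order was the opposite, at 4967, 5468 and 4789, with the lowest sum in vehicle 3, where Ctsw was highest. All 14 markers were lower in treated tumours, and their part in the Ctsw values was not tested.

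Ctsk, a collagen-degrading protease, had the largest higher value. It measured 154, 90.2 and 183 in vehicle tumours and 252, 444 and 173 in treated tumours. The groups overlap, since treated tumour 3 lies below vehicle tumour 3, and treated tumour 2 is the highest by a wide margin. The means were 142 ± 47.6 and 289 ± 139 (SD, n = 3), and the log2 difference of 0.97 ± 0.42 had adjusted p-values of 0.291 by limma, 0.203 by edgeR and 0.0415 by DESeq2. Without PEG-glutaminase 2 it was 0.61, and without vehicle 2 it was 0.67. The sum of 11 fibroblast markers was 64148, 53822 and 72748 in vehicle tumours 1 to 3 and 60127, 76421 and 60686 in treated tumours 1 to 3. Like Ctsk, it was highest in treated tumour 2 and lowest in vehicle 2. Treated tumour 1 had a lower sum than vehicle 1 but a higher Ctsk value. Of the 11 markers 5 were higher and 6 lower in treated tumours. The part of fibroblasts in the Ctsk values was not tested. Ctsf, a low cysteine cathepsin, measured 36.7, 40.2 and 73.6 against 75.6, 105 and 49.4 and overlapped; its log2 difference of 0.61 ± 0.34 (limma adjusted p 0.354) was 0.16 without vehicle 1 and PEG-glutaminase 2.

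The 5 genes with TCACGTGA in their promoters lay close to 0: Atp6v0d1, Atp6v0e, Atp6v1a, Ctsa and Ctsd had log2 differences between -0.05 and 0.09. With the genes that hold only CACGTG, Atp6v0b, Ctsl and Ctsf, the range was -0.05 to 0.61, the upper end being Ctsf. Among the factors that bind this element, Tfeb measured 589, 644 and 607 in vehicle and 483, 473 and 500 in treated tumours, lower without overlap, with a log2 difference of -0.34 ± 0.09 (limma adjusted p 0.134). Tfec, a relative typical of macrophages, measured 61.8, 64.7 and 49.1 against 80.8, 139 and 93.6, higher without overlap, at 0.80 ± 0.24 (limma adjusted p 0.153). Mitf and Tfe3 had log2 differences of -0.23 and -0.08, and Tfe3 was also lower without overlap. None of the 4 passed by limma, edgeR or DESeq2. An unadjusted limma p under 0.05 was found for 2, Tfeb and Tfec, and for 18.4% of all tested genes. Groups were separate in 1 of the 4 with higher and in 2 with lower treated values, against 13.1% and 12.7% of all tested genes.

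Partners of the V-ATPase outside the name rule showed a similar mix. Of 13 tested, 6 were higher and 7 lower, and the median log2 difference was -0.12. By limma, edgeR and DESeq2 0 passed, and 3 had an unadjusted limma p under 0.05, beside 18.4% of all tested genes. Groups were separate in 1 with higher and in 4 with lower treated values, against 13.1% and 12.7% of all tested genes. Atp6ap2, the accessory subunit also known as the prorenin receptor, measured 1790, 1667 and 1657 in vehicle and 1508, 1569 and 1264 in treated tumours, lower without overlap, at -0.24 ± 0.09 (limma adjusted p 0.226). The assembly factor relatives Dmxl2 and Dmxl1 had log2 differences of 0.53 and 0.20, which were 0.35 and 0.00 with the length trend removed. Tmem9 stood at -0.34 and Atp6ap1 at 0.05. Groups were separate in Tmem9 and Dmxl2 and overlapped in Atp6ap1 and Dmxl1.

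The endogenous inhibitors of cathepsins stood lower as a list than the cathepsins themselves. Of 12 tested inhibitor genes 11 were lower and 1 higher, with a median log2 difference of -0.59 beside -0.03 for the cathepsins and -0.00 for all genes. By limma and edgeR 0 passed, 5 were lower at an unadjusted limma p under 0.05, and DESeq2 called 4 lower; over all tested genes these shares were 9.51% and 2.17%. Cst3, the secreted inhibitor cystatin C, measured 11143, 12807 and 12060 in vehicle and 9017, 6953 and 8868 in treated tumours, a log2 difference of -0.54 ± 0.11 with adjusted p-values of 0.114 by limma and 0.000971 by DESeq2. Cstb, the cytosolic stefin B, measured 3417, 4083 and 3575 against 2920, 2535 and 2698, at -0.44 ± 0.09. Ctla2a, a cathepsin L inhibitor resembling a propeptide, measured 458, 472 and 426 against 308, 263 and 301, at -0.64 ± 0.11. Serpinb1a, an inhibitor of cathepsin G and neutrophil elastase, measured 277, 242 and 284 against 135, 159 and 200, at -0.71 ± 0.16. All 4 were lower without overlap and were the 4 genes DESeq2 called; with the length trend removed they stood at -0.42, -0.26, -0.56 and -0.68. That the inhibitors differed from the cathepsins was not tested. The sum of T and NK cell markers was 4789 to 5468 in vehicle and 723 to 3878 in treated tumours. The dendritic cell and MHC class II sum was 29420 to 49692 and 8239 to 18929. Macrophage sums overlapped, at 48001 to 66925 and 52526 to 60691. The part of these cells in the inhibitor values was not tested.

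Other lysosomal lists differed in direction, and the hydrolases were mostly lower. Of 39 tested glycan, lipid and phosphate hydrolases 28 were lower and 11 higher, with a median of -0.08. By limma and edgeR 0 passed. At an unadjusted limma p under 0.05, 11 were lower and 2 higher, against 9.51% and 8.92% of all tested genes. DESeq2 called 2 lower (Gm2a and Npc2, cofactors that present lipids), against 2.17% of all tested genes. Groups were separate in 14 with lower and in 1 with higher treated values, against 12.7% and 13.1% of all tested genes. Of 33 membrane proteins 18 were lower and 15 higher, with a median of -0.01, and DESeq2 called Laptm4a lower. Of 14 genes that sort hydrolases to the lysosome 8 were higher and 6 lower, with a median of 0.07 and no call by any of the 3 tests; Gnptab, which starts the mannose 6-phosphate tag, and Igf2r, which binds it, stood at 0.29 and 0.41, and at 0.22 and 0.25 with the length trend removed; the groups overlapped in Igf2r. Of 7 other lysosomal proteases 5 were higher and 2 lower; DESeq2 called the aspartic protease Napsa lower, at -0.62 in limma, while Tpp1, a tripeptidyl peptidase, stood at 0.19.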

How the data were processed

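RNA sequencing was done on 6 tumours. Per the labels' protocols, mRNA was selected by its poly-A tail and primed with random hexamers. Read quality control by FastQC, alignment by STAR, counting by featureCounts, and DESeq2 and DESeq appear among the tools in the submitters' processing notes. Genome build, strand setting and versions are not given in the sources, and rows are BALB/cJ gene models. The authors deposited normalized counts as a signal per library, with a mean signal, log2 fold changes with standard errors, a test score and p-values with adjusted p-values of their own comparison. Their mean signal does not match these 6 libraries, so that comparison is quoted for a few genes only, each named as the authors'.

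Repeats of a model were dropped (93 of 40396 rows). Dividing each library by the worth of 1 read gave whole reads for 100% of values within 0.01; in PEG-glutaminase 2 the step lies near 1. Models without a symbol took 0.130% to 0.214% of reads. The main test was limma 3.58.1 (R 4.3.3; trend, robust, two-sided) on log2(value + 1), a scale that understates changes of low genes, for 13557 genes with a mean of at least 10, Benjamini-Hochberg adjusted, threshold 0.05. Alternatives were edgeR 4.0.16 and DESeq2 1.42.0 on recovered reads (0 and 487 genes called), other pseudocounts, filters, scaling, a replicate block, left-out libraries and removal of a lowess length trend. The scripts were tested on simulated data. Lengths are those of the GENCODE M21 principal transcript; 99.4% of tested genes had one. With 3 against 3, an exact permutation test cannot go below p = 0.1, so none is given.

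Members and gene lists were chosen with earlier results of these data known. Every member is accounted for; values per library are given for members with a call by any tool, an unadjusted p under 0.05, separated groups, a high level, an extreme difference, a paralogue or a cell-restricted role. From each list the 4 genes of smallest p, at most, are named, plus Tcirg1, Atp6ap1, Atp6ap2, Tfeb and Tfe3.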

Additional observations from a re-analysis of the deposited data

Results flagged for a closer look

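The authors' deposited table holds a mean signal per gene that the 6 libraries do not account for. In 567 gene models with 0 reads in all 6 libraries, that mean was above 0, at most 0.760. In models with 1 read over the 6 libraries, that value was up to 8.07 times the deposited mean, and within 2% of this highest ratio in 79.1% of them, where a mean over 6 libraries would give 6. The authors' deposited table therefore appears to include libraries not analysed here, and its fold changes can differ from those of the 6: Ctsf is listed there at a log2 fold change of 0.03, and the log2 ratio of the group means over the 6 libraries was 0.61. No group holds 4 or more tumours and there is a single contrast, so no rule for outlying tumours or for differences between contrasts was applied. Vehicle 1 and PEG-glutaminase 2, which stood apart by their marker sums, were left out together as an alternative.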

How the results depend on the processing

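The number of V-ATPase genes called stayed at 0 in each alternative run. The number of cathepsins called was 0 except for 3 by DESeq2 (Ctsg, Ctsh and Ctsk) and 1 (Ctsg) without PEG-glutaminase 3, so the range on leaving out 1 library was 0 to 1. Over all genes the main test called 5, against 487 by DESeq2, 0 by edgeR (2554 at an unadjusted p under 0.05), 136 with no filter and 3 without both vehicle 1 and PEG-glutaminase 2. On leaving out 1 library the count ranged from 0 (without PEG-glutaminase 1, vehicle 1 or vehicle 2, with 1939, 2379 and 1685 at an unadjusted p under 0.05) to 25 (without PEG-glutaminase 3), with 20 without PEG-glutaminase 2; the cause was not tested. The family medians and their difference moved by less than 0.05, 0.09 and 0.13 in each alternative run. Those limits are SDs between libraries of a group, taken from the family means and the gap between them.

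With the replicate number as a block, 1 gene was called. The numbers do not pair the tumours: same-numbered tumours correlated at -0.13, -0.21 and -0.22 in their deviations, no tumour correlated best with its own number, and no member was called with or without the block.

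Of 494 member values under alternatives, 25 changed sign, all in 10 genes whose main difference was at most 0.11 in size. Without both vehicle 1 and PEG-glutaminase 2 the reversed values were Atp6v0b -0.0490, Atp6v1a -0.0756, Atp6v1c1 -0.0144, Atp6v1g2 0.170, Ctsa -0.0143 and Ctsb -0.0312. With the length trend removed they were Atp6v0d1 0.0360, Atp6v1a -0.0341, Ctsa -0.00527 and Ctsb -0.0205. On leaving out 1 library Atp6v0b ranged from -0.0787 to 0.0896, Atp6v0c from -0.00529 to 0.0763, Atp6v0d1 from -0.0621 to 0.0314, Atp6v0e from -0.120 to 0.00568, Atp6v1a from -0.0410 to 0.0645, Atp6v1b2 from -0.101 to 0.0630, Atp6v1g2 from -0.366 to 0.172, Ctsa from -0.0200 to 0.0663 and Ctsb from -0.0198 to 0.108. The precision is limited by 3 tumours a group and, for Ctsg, Ctsf, Ctse, Atp6v1g2 and Atp6v0d2, by counts near or below 100.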
